A study of Mus musculus with 8 samples.

Results

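The genes described here are the members of the Wnt pathway that a rule on gene symbols picked from the count table. They comprise every Wnt ligand, every Frizzled receptor with the co-receptors Lrp5 and Lrp6, the secreted inhibitors of the Sfrp and Dkk families and Notum, the R-spondins with Lgr4, Lgr5, Lgr6, Znrf3 and Rnf43, the feedback and scaffold genes Axin1, Axin2, Nkd1, Nkd2 and Apcdd1, and the TCF/LEF factors Lef1, Tcf7, Tcf7l1 and Tcf7l2. The rule matched 58 of the 55367 genes in the table. Of these, 35 reached at least 10 counts in at least 3 of the 8 libraries and were tested together with all 12137 genes that did so. With 2 libraries per condition, no gene could pass this filter through 1 condition alone. It could pass through 2, as Axin2 did through vehicle and CCM.

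The cells were fibroblastic reticular cells (FRCs), the fibroblasts that build the reticular scaffold of the lymph node, in culture. All libraries came from 1 FRC line made from lymph nodes of p53ER/ER mice on the C57BL/6 strain, so every condition carries that p53 allele and the results describe a single line. The FRCs were kept for 4 days in RPMI with serum under 4 conditions, each with 2 libraries of poly(A) RNA. Vehicle was RPMI with water, LA was RPMI with 15 mM lactic acid, CCM was RPMI conditioned by FRCs themselves, and TCM was RPMI conditioned by B16.F10 cells, a mouse melanoma line. TCM is therefore read against CCM, and LA against vehicle. A further comparison asks whether the TCM effect and the LA effect on a gene differ, and another compares the control media, CCM against vehicle. The first pair of comparisons share no library. The difference between the effects uses all of them, and CCM against vehicle shares its libraries with each.

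Wnt ligands are secreted, lipid-modified glycoproteins that bind Frizzled receptors together with Lrp5 or Lrp6. In the canonical branch this stabilises beta-catenin, which enters the nucleus, binds TCF/LEF factors and turns on target genes, among them the feedback inhibitors Axin2, Nkd1, Notum, Znrf3 and Rnf43. In the non-canonical branches ligands such as Wnt5a act on the cytoskeleton and calcium without beta-catenin. R-spondins bind Lgr receptors and withdraw the ubiquitin ligases Znrf3 and Rnf43 that would otherwise remove Frizzled from the membrane, which raises the sensitivity of a cell to Wnt. Fibroblasts of many organs are a source of Wnt ligands, R-spondins and secreted Frizzled-related proteins.

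The libraries held 8232889 to 14107964 counts in genes, so that 3 counts, the limit that a count of 0 allows, correspond to 0.212 to 0.355 counts per 1000000 (CPM). CPM values are scaled by the library size in tested genes times TMM factors, which were 0.938 to 1.04. These intervals and limits cover counting error only, since the reads carried no molecular identifiers. The 2 libraries of a condition differed by more than sampling noise in every condition, with a chi-square per degree of freedom of 3.28 for CCM, 4.82 for vehicle, 7.32 for LA and 19.8 for TCM. The study calls the libraries of a condition biological replicates. The labels do not say whether they came from separate cultures, so P values measure the spread between these libraries. Of 13 FRC markers, Pdpn (114 to 187 CPM), Vcam1, Pdgfra, Pdgfrb, Ltbr and the collagens were present. Il7 was low, at 0.559 to 1.83 CPM (5 to 26 counts), and Thy1 stayed at or below 1.75 CPM. Ccl21a was at 0 in all libraries, Ccl19 had 1 count in 1 library and Cxcl13 had 43 counts in CCM replicate 1 and 0 in the other 7 libraries. Blood cell markers other than Lyz2 were at 0, endothelial markers summed to 1.01 to 2.18 CPM and melanoma markers to 0.956 to 1.90 CPM. The melanoma sum was mostly Pmel, while Tyrp1 had 6 and 3 counts and Dct 1 and 1 in the TCM libraries and 0 in the other 6, and Tyr was at 0 in all. The part of melanoma RNA in the TCM results was not tested. Throughout, a gene is called when its adjusted P value is under 0.05 by the quasi-likelihood test of edgeR with Benjamini-Hochberg adjustment over all 12137 genes and its log2 fold change exceeds 0.39 in size. In these bulk libraries fewer cells of a type and less RNA per cell cannot be told apart.

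TCM changed 14 of the 35 tested Wnt pathway genes, 5 of them higher and 9 lower than in CCM, beside 19.1% of all tested genes called in this comparison (8.83% higher and 10.2% lower). On library totals without TMM factors, which moved the median of all genes by -0.14, the split was 4 higher and 10 lower for the pathway genes, and 651 against 2041 in place of 1072 against 1242 for all genes. Of the ligands, Wnt5a, Wnt2, Wnt4 and Wnt5b fell and Wnt2b and Wnt11 were higher. Fzd4 and Fzd1 fell, both tested R-spondins rose, and the beta-catenin target Axin2 fell to a few counts. LA changed 4 of the 35, with Rspo3 and Lef1 higher and Wnt4 and Axin2 lower than in vehicle, beside 2.55% of all tested genes (1.31% higher and 1.24% lower). All 4 were also called with TCM, with the same direction for Wnt4, Rspo3 and Axin2 and the opposite direction for Lef1. The count with LA was 0 without vehicle replicate 2 or LA replicate 2, 1 without vehicle replicate 1 and 2 without either CCM library or LA replicate 1, while that with TCM stayed between 10 and 15. The median log2 fold change of the 35 genes was -0.08 with TCM and -0.01 with LA, beside 0.00 for all tested genes in both. In all 14 calls with TCM and all 4 calls with LA the 2 treated libraries lay outside the range of their 2 controls. This was also the case for 10 of the 21 uncalled genes with TCM and 15 of the 31 uncalled genes with LA. How often it occurred among all tested genes was not counted, so a lack of overlap is given here and below only as a description.

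**Figure D1:**
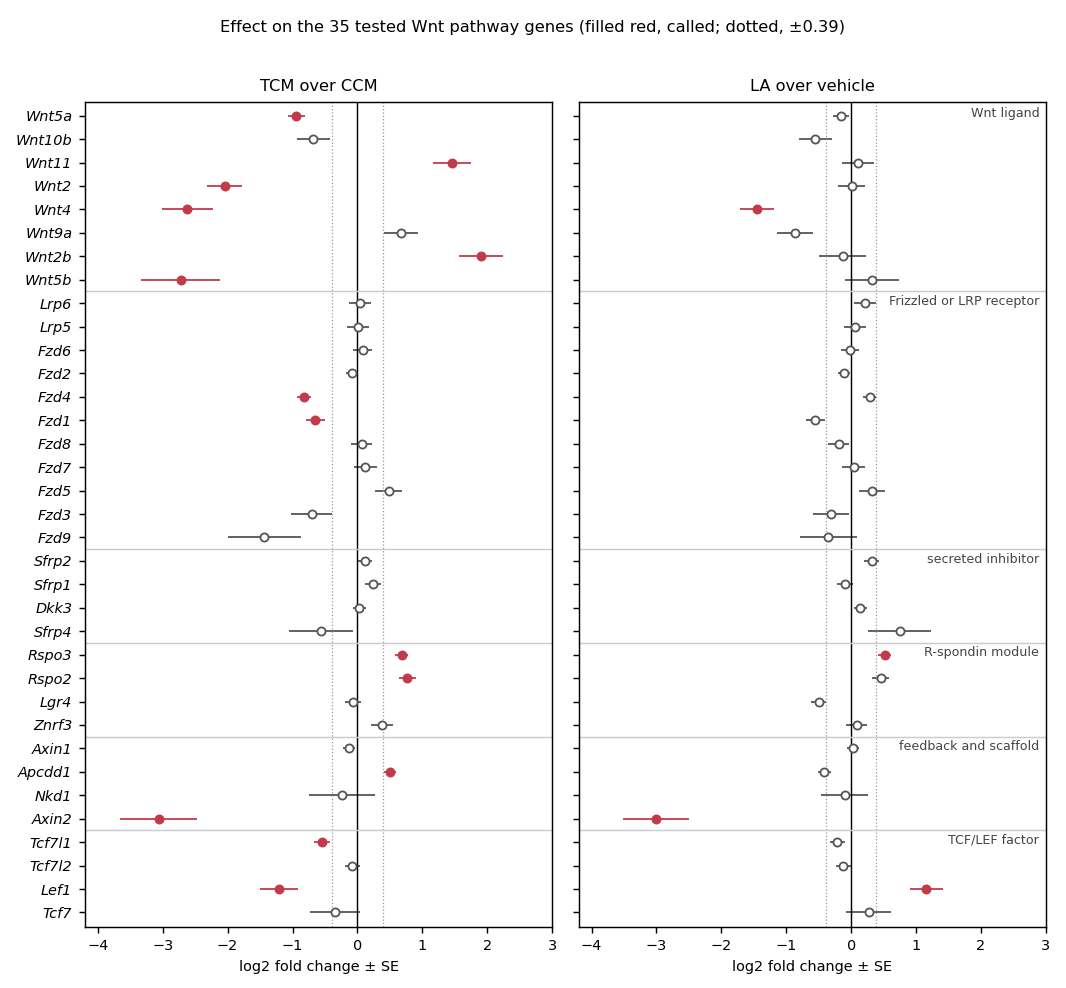
Log2 fold change with its standard error (SE) for each of the 35 tested Wnt pathway genes, TCM over CCM on the left and LA over vehicle on the right, with genes grouped by role. Filled red points are called genes, 14 on the left and 4 on the right, and dotted lines mark 0.39 in either direction. Axin2 has the lowest value in both panels.

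Of the 19 Wnt ligand genes in the table, 8 were tested. Wnt5a (chr14:28504750-28527448, plus strand, GRCm38), the classical non-canonical ligand, had the most RNA per length. Its level was 102 and 104 CPM in vehicle, 93.2 and 101 CPM in CCM, 82.2 and 102 CPM in LA and 45.3 and 56.0 CPM in TCM. Only the TCM libraries stood apart, each below every other library. The log2 fold change of TCM over CCM was -0.94 ± 0.13 (SE, n = 2 libraries per condition, adjusted P = 0.00053, edgeR), or 1.92-fold lower, and that of LA over vehicle was -0.16 ± 0.13 (adjusted P = 0.67).

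Wnt2 (chr6:17988940-18030585, minus strand), a canonical ligand of mesenchymal cells, was at 5.56 to 7.07 CPM in the 6 libraries of vehicle, CCM and LA and at 1.69 and 1.42 CPM in TCM. The TCM libraries held 16 and 13 counts and did not overlap with any other. The log2 fold change was -2.05 ± 0.27 with TCM (adjusted P = 0.00033, edgeR) and 0.01 ± 0.21 with LA (adjusted P = 0.995). Wnt5b (chr6:119432531-119544347, minus strand), the close relative of Wnt5a, had 13 and 21 counts in vehicle, 26 and 23 in CCM, 9 and 41 in LA and 4 and 2 in TCM. The LA libraries spanned those of vehicle and CCM, whereas TCM lay below all of them, at a log2 fold change of -2.73 ± 0.61 over CCM (adjusted P = 0.0090, edgeR). Wnt5b shares its locus with Fbxl14 on the opposite strand, which held 267 to 478 counts per library and had a log2 fold change of -0.09 with TCM (adjusted P = 0.60). Whether the counting used strand is not given in the sources used here, so reads of the 2 genes may not be fully separated.

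Wnt4 (chr4:137277489-137299726, plus strand) was the ligand called with both treatments. Its level was 7.71 and 7.03 CPM in vehicle, 2.95 and 4.49 in CCM, 2.48 and 2.82 in LA and 0.738 and 0.437 in TCM. The conditions followed each other in that order without overlap. TCM lowered it by 2.62 ± 0.39 on the log2 scale against CCM (adjusted P = 0.00077, edgeR), and LA lowered it by 1.45 ± 0.25 against vehicle (adjusted P = 0.015). The TCM effect minus the LA effect was -1.17 ± 0.50, which missed the threshold (adjusted P = 0.17). The LA call was lost without any 1 of the 2 vehicle and 2 LA libraries (adjusted P from 0.095 to 0.11), at log2 fold changes of -1.56 to -1.38. CCM was lower than vehicle by -0.99 ± 0.24 (adjusted P = 0.074).

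Wnt2b and Wnt11 were higher in TCM than in CCM. Wnt2b (chr3:104945272-104961921, minus strand), the canonical relative of Wnt2, was at 0.759 to 1.57 CPM in the 6 libraries of the other conditions (9 to 17 counts) and at 3.06 and 3.71 CPM in TCM (29 and 34 counts). Its log2 fold change was 1.90 ± 0.34 with TCM (adjusted P = 0.0025, edgeR) and -0.13 ± 0.37 with LA. Thus the paralogues Wnt2 and Wnt2b moved in opposite directions with TCM. Wnt11 (chr7:98835112-98855195, plus strand), a non-canonical ligand of morphogenetic movements, was at 7.26 and 5.0 CPM in vehicle, 1.69 and 2.87 in CCM, 7.22 and 6.00 in LA and 6.43 and 6.00 in TCM. CCM was the condition that stood apart, and the TCM libraries lay within the range of the vehicle libraries. The log2 fold change was 1.46 ± 0.29 for TCM over CCM (adjusted P = 0.0052, edgeR) and -1.43 ± 0.29 for CCM over vehicle (adjusted P = 0.045), 2 comparisons that share the CCM libraries. The TCM call was lost without CCM replicate 1 (log2 fold change 1.11, adjusted P = 0.065). The call of CCM against vehicle was lost without any 1 of the vehicle, CCM or LA libraries (adjusted P from 0.056 to 0.41).

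The remaining tested ligands were not called in TCM against CCM or LA against vehicle. Wnt9a (chr11:59306928-59333552, plus strand) had 3.24 and 4.25 CPM in vehicle, 2.45 and 2.39 in CCM, 1.89 and 2.19 in LA and 3.37 and 4.37 in TCM. Its values were above the control with TCM (log2 fold change 0.67 ± 0.27, adjusted P = 0.099) and below it with LA (-0.87 ± 0.27, adjusted P = 0.15), without overlap in either, and it is the difference between the effects that was called. Wnt10b, a canonical ligand, had log2 fold changes of -0.68 ± 0.25 with TCM (adjusted P = 0.079) and -0.55 ± 0.26 with LA (adjusted P = 0.37).

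Expressed per kilobase of exon, so that genes can be added, the Wnt ligand RNA of the vehicle libraries summed to 24.4 and 23.2 CPM per kb, that of CCM to 20.02 and 23.01, that of LA to 18.5 and 21.8 and that of TCM to 12.1 and 13.5. The TCM libraries had the smallest sums of the 8. Wnt5a made up 48.0% to 59.6% of the sum in every library. The make-up of the rest differed with TCM, where Wnt2 supplied 6.20% and 4.67% of the sum against 13.1% and 13.6% in CCM, Wnt2b supplied 6.03% and 6.56% against 0.902% and 1.09%, and Wnt11 supplied 12.9% and 10.8% against 2.04% and 3.01%. The share of Wnt11 was 7.19% and 5.20% in vehicle and 9.43% and 6.65% in LA, so that CCM was the lowest condition for it. These sums and shares are a description and were not tested.

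**Figure D2:**
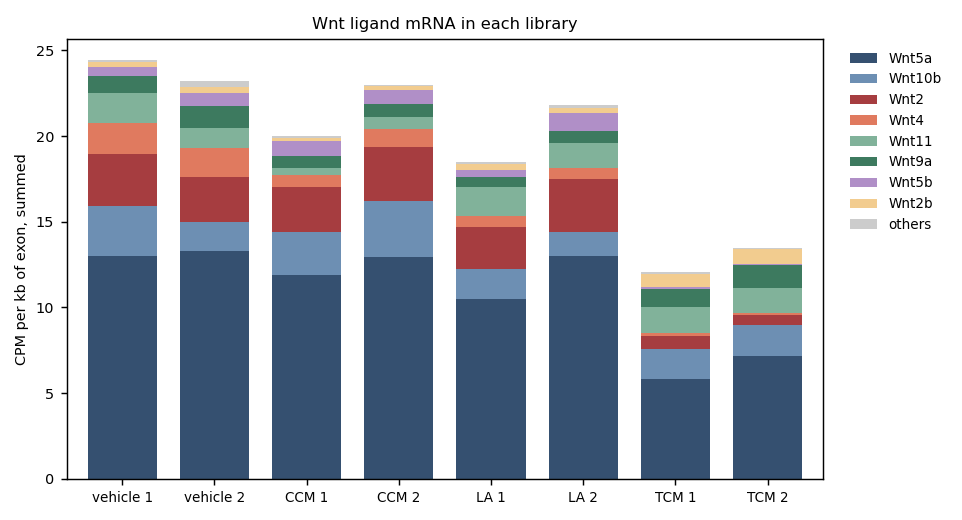
Summed RNA of the Wnt ligands in each of the 8 libraries, in CPM per kilobase of exon, with a colour for each ligand. The bars of TCM 1 and TCM 2 reach 12.1 and 13.5, below the 18.5 to 24.4 of the other libraries, and Wnt5a is the tallest segment in every bar.

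Promoters are shown for the 4 ligands with the smallest adjusted P values among those called with TCM that have an entry in the promoter table, so that the starts of ligands that fell (Wnt2, Wnt4) and of ligands that were higher (Wnt2b, Wnt11) stand side by side. Each sequence runs 5′ to 3′ on the strand of its gene from 250 bases before to 50 bases after the RefSeq start (GRCm38.p6). The windows are chr6:18030396-18030695 (minus strand) for Wnt2, chr4:137277385-137277684 (plus strand) for Wnt4, chr3:104961660-104961959 (minus strand) for Wnt2b and chr7:98834862-98835161 (plus strand) for the upstream start of Wnt11. Capitals mark a TCF/LEF core motif, which in the Wnt11 window reads ATCAAAG, that is CTTTGAT on the strand opposite to the gene, and which the other windows do not hold.
Wnt2: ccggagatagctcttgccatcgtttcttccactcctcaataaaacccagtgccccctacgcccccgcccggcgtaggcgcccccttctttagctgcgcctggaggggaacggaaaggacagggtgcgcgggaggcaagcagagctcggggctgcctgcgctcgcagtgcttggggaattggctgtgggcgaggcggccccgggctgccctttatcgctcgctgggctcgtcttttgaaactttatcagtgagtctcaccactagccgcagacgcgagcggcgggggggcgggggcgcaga
Wnt4: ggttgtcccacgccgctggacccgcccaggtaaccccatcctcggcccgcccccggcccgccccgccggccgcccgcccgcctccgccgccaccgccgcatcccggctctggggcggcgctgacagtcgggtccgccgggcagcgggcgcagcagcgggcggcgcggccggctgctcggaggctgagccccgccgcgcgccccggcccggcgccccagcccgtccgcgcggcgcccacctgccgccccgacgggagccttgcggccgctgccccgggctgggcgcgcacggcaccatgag
Wnt2b: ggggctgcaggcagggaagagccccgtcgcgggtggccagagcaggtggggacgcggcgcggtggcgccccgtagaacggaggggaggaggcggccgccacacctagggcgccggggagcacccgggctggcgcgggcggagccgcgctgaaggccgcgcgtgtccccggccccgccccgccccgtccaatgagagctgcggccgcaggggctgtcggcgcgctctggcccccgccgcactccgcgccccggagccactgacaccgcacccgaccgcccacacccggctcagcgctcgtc
Wnt11: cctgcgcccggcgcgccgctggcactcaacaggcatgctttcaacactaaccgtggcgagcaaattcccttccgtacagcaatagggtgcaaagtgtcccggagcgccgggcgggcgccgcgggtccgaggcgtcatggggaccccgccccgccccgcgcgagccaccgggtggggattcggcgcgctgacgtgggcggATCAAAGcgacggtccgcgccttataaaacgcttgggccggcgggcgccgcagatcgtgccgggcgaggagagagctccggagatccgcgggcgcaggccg

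Among the 12 receptors and co-receptors, 11 were tested, 2 were called with TCM (18.2%, near the 19.1% of all tested genes) and 0 with LA (beside 2.55%). Fzd4 (chr7:89404355-89413134, plus strand), the receptor of Norrin as well as of Wnt ligands, was at 162 and 172 CPM in vehicle, 186 and 175 in CCM, 192 and 215 in LA and 96.2 and 108 in TCM. TCM was the low condition and LA the high one. Its log2 fold change was -0.82 ± 0.10 with TCM (adjusted P = 0.00024, edgeR), or 1.77-fold lower, and 0.29 ± 0.10 with LA (adjusted P = 0.20). Fzd1 (chr5:4753839-4758035, minus strand), a canonical receptor, was at 109.6 and 136 CPM in vehicle, 115 and 104 in CCM, 72.2 and 95.3 in LA and 65.9 and 73.3 in TCM. Both treatments lay below their controls without overlap, at log2 fold changes of -0.65 ± 0.15 with TCM (adjusted P = 0.0095, edgeR) and -0.55 ± 0.15 with LA (adjusted P = 0.081). The TCM call on Fzd1 was lost without CCM replicate 1 (-0.58, adjusted P = 0.081) and without TCM replicate 1 (-0.58, adjusted P = 0.076).
The promoter of Fzd4 (RefSeq, chr7:89404116-89404415, plus strand) is shown as that of the member with the smallest adjusted P value in either comparison, and holds no TCF/LEF core.
Fzd4: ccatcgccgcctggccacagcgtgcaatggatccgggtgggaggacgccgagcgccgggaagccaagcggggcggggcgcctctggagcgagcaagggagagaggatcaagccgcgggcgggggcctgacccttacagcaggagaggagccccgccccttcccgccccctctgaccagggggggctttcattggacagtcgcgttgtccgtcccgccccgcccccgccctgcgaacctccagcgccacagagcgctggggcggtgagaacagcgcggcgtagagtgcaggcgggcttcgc

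The other receptors gave no call. The 9 uncalled ones had log2 fold changes of -1.44 to 0.48 with TCM, where the lowest adjusted P value was 0.096. Fzd2 and Fzd6, which had the most RNA per length of the family, were at -0.08 ± 0.09 and 0.08 ± 0.14, and Lrp5 and Lrp6 at 0.01 ± 0.16 and 0.04 ± 0.17. Fzd7 was at 0.12 ± 0.17, Fzd8 at 0.07 ± 0.16, Fzd5 at 0.48 ± 0.20 (adjusted P = 0.12), Fzd3 at -0.71 ± 0.32 and Fzd9 at -1.44 ± 0.56 (7 and 8 counts in TCM, 26 and 23 in CCM). With LA, 2 of the 11 receptors, Fzd1 and Fzd4, had an unadjusted P value under 0.05, and DESeq2 called 1, Fzd1 (adjusted P = 0.028). Summed per kilobase, the receptors reached 173 to 235 CPM per kb over the 8 libraries, and the ranges of the 4 conditions overlapped.

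The secreted inhibitors were the most abundant group per length. None of the 4 tested was called in any comparison. The shares among all tested genes were 19.1% with TCM, 2.55% with LA, 10.4% for the difference and 1.3% for CCM against vehicle. With so few genes, a count of 0 says little about the group. Sfrp2, a secreted Frizzled-related protein that binds Wnt ligands outside the cell, averaged 2166 CPM per kb over the 8 libraries, against 125 for Sfrp1, 85.5 for the Dickkopf relative Dkk3 and 10.9 for Wnt5a. Sfrp2 was at 4820 and 4311 CPM in vehicle, 4091 and 3989 in CCM, 6076 and 5299 in LA and 4391 and 4336 in TCM. The LA libraries were the highest of the 8, at a log2 fold change of 0.32 ± 0.12 over vehicle (adjusted P = 0.22, edgeR). With TCM the 4 tested inhibitors, Sfrp1, Sfrp2, Sfrp4 and Dkk3, ranged from -0.57 to 0.24, none with an unadjusted P value under 0.05 and none called by DESeq2. With LA, Sfrp2 alone had an unadjusted P value under 0.05 and DESeq2 called none.

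**Figure D3:**
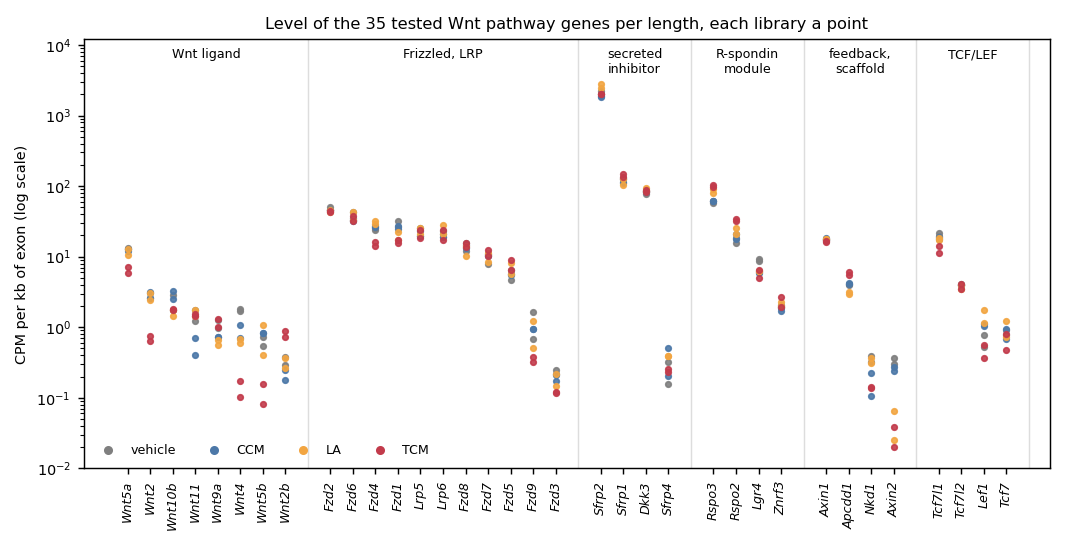
Level of each of the 35 tested genes in CPM per kilobase of exon on a log axis, with a point for each of the 8 libraries coloured by condition. Sfrp2 averages 2166 CPM per kb, above Rspo3 at 76.9 and Wnt5a at 10.9, and the red TCM points of Axin2, Wnt4 and Wnt5b lie at or below 0.176.

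Both R-spondins that were tested rose with TCM, and Rspo3 also with LA. Rspo3 (chr10:29452416-29535867, minus strand), an amplifier of Wnt signalling, was at 179 and 193 CPM in vehicle, 191 and 192 in CCM, 286 and 248 in LA and 316 and 298 in TCM. Both treatments lay above both control media without overlap. The log2 fold change was 0.68 ± 0.10 with TCM (adjusted P = 0.00071, edgeR), or 1.60-fold higher, and 0.52 ± 0.10 with LA (adjusted P = 0.024), or 1.43-fold higher. The effects differed by 0.16 ± 0.14 (adjusted P = 0.53). The LA call on Rspo3 was lost without any 1 of the vehicle, CCM or LA libraries (log2 fold changes of 0.42 to 0.62, adjusted P from 0.053 to 0.21).

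Rspo2 (chr15:43020794-43170826, minus strand), its paralogue, was at 79.3 and 95.5 CPM in vehicle, 106 and 91.5 in CCM, 107 and 132 in LA and 163 and 173 in TCM. TCM libraries were the highest and LA libraries the next. Its log2 fold change was 0.77 ± 0.13 with TCM (adjusted P = 0.0017, edgeR) and 0.45 ± 0.13 with LA (adjusted P = 0.11), and the effects differed by 0.32 ± 0.18 (adjusted P = 0.32). Of the receptors and ligases on which R-spondins act, Lgr4 (chr2:109917647-110014257, plus strand) was at 53.7 and 51.5 CPM in vehicle and at 29.6 to 37.7 CPM in the other 6 libraries. Vehicle was thus the high condition. Lgr4 was called lower in CCM than in vehicle (log2 fold change -0.58 ± 0.12, adjusted P = 0.047, edgeR), had -0.50 ± 0.12 with LA (adjusted P = 0.057) and -0.07 ± 0.12 with TCM over CCM. The CCM call was lost without any 1 of the vehicle, CCM or LA libraries (adjusted P from 0.070 to 0.40) and on library totals without TMM factors (adjusted P = 0.053). Znrf3 had 0.37 ± 0.17 with TCM (adjusted P = 0.14) and 0.08 ± 0.17 with LA. Lgr5 and Rnf43, as well as Rspo1 and Rspo4, did not reach the count filter, and the last 3 were at 0 counts in all libraries.

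Added per kilobase, the R-spondin module reached 84.5 and 92.0 CPM per kb in vehicle, 90.2 and 87.7 in CCM, 122 and 115 in LA and 141 and 139 in TCM. Its sum was thus higher in the treated libraries while that of the Wnt ligands was lowest in TCM.

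The direct targets of beta-catenin and TCF did not move together. Of 10 such genes among the members, 6 were tested (Axin2, Lef1, Apcdd1, Tcf7, Nkd1 and Znrf3). With TCM, Axin2 and Lef1 were lower, Apcdd1 was higher and 3 were not called. With LA, Axin2 was lower, Lef1 was higher and 4 were not called.

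Axin2 (chr11:108920349-108950783, plus strand), a scaffold of the beta-catenin destruction complex that is widely used as a readout of canonical signalling, held few counts. It had 15 and 22 counts in vehicle, 18 and 14 in CCM, 3 and 2 in LA and 2 and 1 in TCM, which is 1.68, 2.04, 1.52, 1.34, 0.355, 0.141, 0.211 and 0.109 CPM. Both treatments lay far below both controls without overlap. CCM exceeded TCM 8.91-fold by pooled counts (95% interval 2.79 to 45.5) and vehicle exceeded LA 8.47-fold (3.32 to 27.6), with exact intervals that cover counting error only. Both were called (adjusted P = 0.0041 with TCM and 0.013 with LA, edgeR), and the effects differed by -0.06 ± 0.70 on the log2 scale (adjusted P = 0.98). Axin2 passed the count filter only through vehicle and CCM, the conditions where it was high. These P values are therefore not independent of that selection. The LA call was lost without vehicle replicate 2 (adjusted P = 0.12) and without LA replicate 2 (adjusted P = 0.14), and DESeq2 gave no adjusted P value for Axin2 in that comparison.
The Axin2 promoter (RefSeq, chr11:108920099-108920398, plus strand) is shown as that of the member with the lowest log2 fold change in both comparisons.
Axin2: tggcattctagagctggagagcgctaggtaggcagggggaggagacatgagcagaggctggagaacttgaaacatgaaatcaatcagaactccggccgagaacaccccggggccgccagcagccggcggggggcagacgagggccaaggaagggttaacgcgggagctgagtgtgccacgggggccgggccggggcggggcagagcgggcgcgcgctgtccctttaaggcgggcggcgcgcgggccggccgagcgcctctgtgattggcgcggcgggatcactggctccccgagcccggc

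Lef1 (chr3:131110471-131224356, plus strand), a nuclear partner of beta-catenin and itself a target, moved in opposite directions. Its level was 4.58 and 6.84 CPM in vehicle, 9.02 and 9.85 in CCM, 9.94 and 15.4 in LA and 4.85 and 3.27 in TCM. TCM lay below CCM and LA above vehicle, and the TCM libraries overlapped with those of vehicle. The log2 fold change was -1.21 ± 0.29 with TCM (adjusted P = 0.012, edgeR), or 2.31-fold lower, and 1.16 ± 0.26 with LA (adjusted P = 0.042), or 2.23-fold higher. CCM exceeded vehicle by 0.70 ± 0.27 (adjusted P = 0.28), so that the control media were themselves apart without overlap. The TCM call was lost without CCM replicate 2 (-1.15, adjusted P = 0.064). The LA call was lost without either vehicle, either CCM or LA replicate 2 (log2 fold changes of 0.78 to 1.49, adjusted P from 0.070 to 0.35) and when only the LA and vehicle libraries were fitted (adjusted P = 0.052).

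Apcdd1 (chr18:62922231-62961179, plus strand), a membrane-bound inhibitor that binds Wnt and Lrp5, was at 52.6 and 51.9 CPM in vehicle, 52.0 and 53.8 in CCM, 40.3 and 38.2 in LA and 72.0 and 77.8 in TCM. The control media overlapped, TCM stood above them and LA below. Its log2 fold change was 0.50 ± 0.10 with TCM (adjusted P = 0.0041, edgeR) and -0.41 ± 0.10 with LA (adjusted P = 0.060). The TCM call was lost without CCM replicate 1 (0.48, adjusted P = 0.059) and, since library totals without TMM factors lowered its log2 fold change to 0.36, under that scaling. Nkd1, a Dishevelled-binding inhibitor, had 5 to 20 counts per library and log2 fold changes of -0.24 ± 0.51 with TCM and -0.10 ± 0.36 with LA. Axin1, the scaffold that is not a target, had -0.13 ± 0.09 and 0.04 ± 0.09.

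Among the other TCF/LEF factors, Tcf7l1 (chr6:72626378-72789254, minus strand), usually a repressor of targets, was the most abundant per length. It was at 83.9 and 78.1 CPM in vehicle, 75.5 and 70.3 in CCM, 72.4 and 67.3 in LA and 44.9 and 55.0 in TCM. The TCM libraries were the lowest of the 8. The log2 fold change was -0.55 ± 0.12 with TCM (adjusted P = 0.0071, edgeR) and -0.21 ± 0.11 with LA (adjusted P = 0.44), and the TCM call was lost without CCM replicate 1 (-0.49, adjusted P = 0.073). Tcf7l2 had -0.08 ± 0.12 with TCM and -0.12 ± 0.12 with LA, and Tcf7 -0.34 ± 0.39 and 0.27 ± 0.35. Summed per kilobase, the TCF/LEF genes reached 23.8 to 26.7 CPM per kb in the libraries of vehicle, CCM and LA and 15.96 and 19.3 in TCM.

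**Figure D4:**
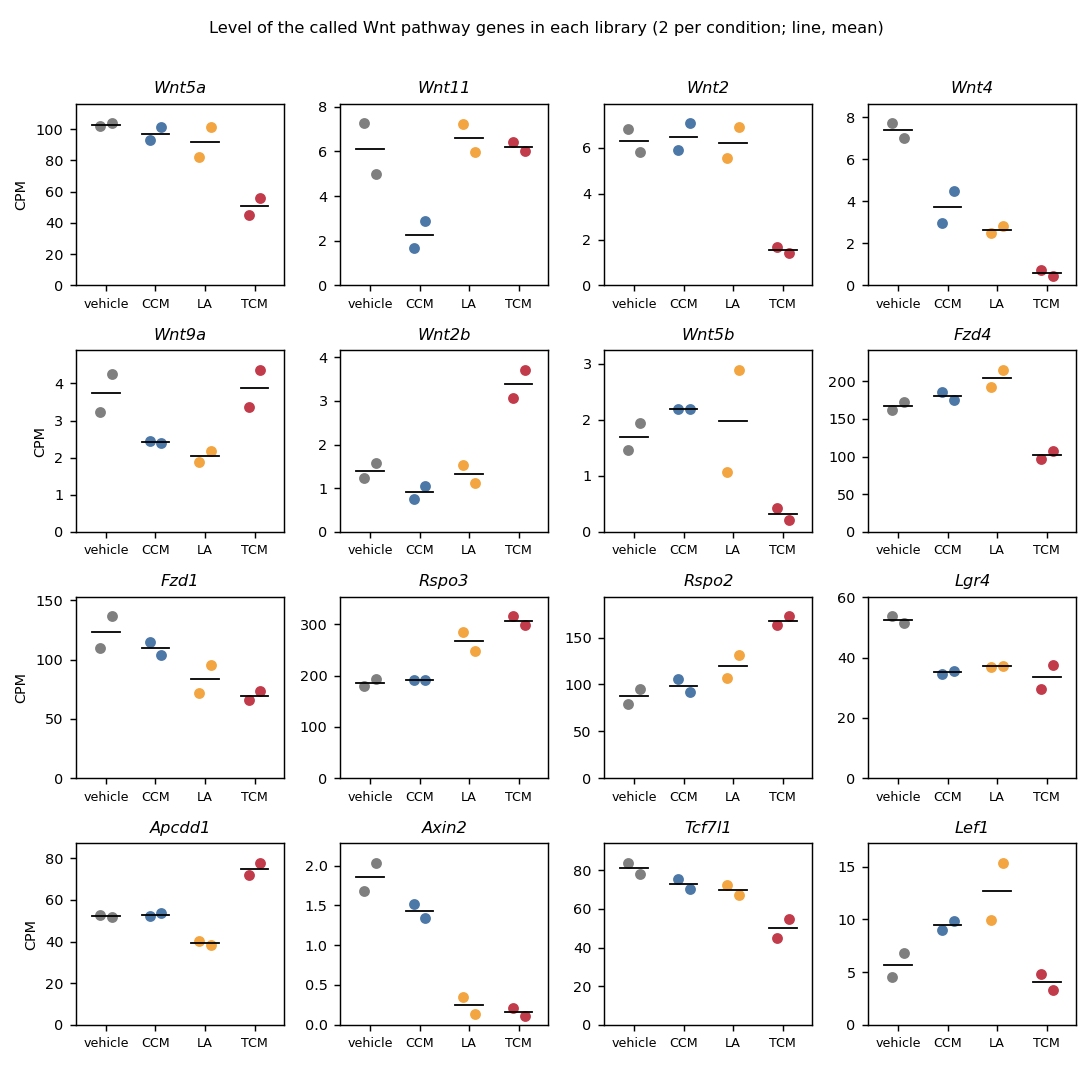
CPM of the 16 Wnt pathway genes called in at least 1 comparison, with a panel for each gene, a point for each library and a line at the mean of the 2 libraries of a condition. Each axis starts at 0. The TCM points are the lowest for Wnt5a, Wnt2, Wnt4, Wnt5b, Fzd4 and Tcf7l1 and the highest for Wnt2b, Rspo3, Rspo2 and Apcdd1, while CCM is the lowest for Wnt11 and vehicle the highest for Lgr4.

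The TCM and LA effects differed for 9 of the 35 genes, beside 10.4% of all tested genes called for the difference (4.45% above and 6% below, or 540 against 728 genes, and 327 against 1085 on library totals without TMM factors). They were Wnt5a, Wnt2, Wnt5b, Fzd4 and Lef1, with the TCM effect below the LA effect, and Wnt2b, Wnt11, Wnt9a and Apcdd1, with it above. For Lef1 the difference was -2.37 ± 0.39 (adjusted P = 0.0026, edgeR), for Wnt2 -2.06 ± 0.34 (adjusted P = 0.0028), for Fzd4 -1.11 ± 0.14 (adjusted P = 0.00054) and for Apcdd1 0.91 ± 0.14 (adjusted P = 0.0017). These 4 were called in each of the 17 alternatives run. Each of the remaining 5 lost its call without at least 1 library, and the count of genes that differed was 4 without CCM replicate 1 or LA replicate 2 and 5 without CCM replicate 2 or either vehicle library. Wnt5a (-0.78 ± 0.18, adjusted P = 0.019) and Wnt5b (-3.05 ± 0.76, adjusted P = 0.026) lost it without either vehicle library, either CCM library or LA replicate 2, with adjusted P from 0.051 to 0.093 and from 0.055 to 0.16. Wnt2b (2.03 ± 0.51, adjusted P = 0.027) lost it without the same 5 libraries (0.055 to 0.13) and by DESeq2 (0.11). Wnt9a (1.54 ± 0.38, adjusted P = 0.026) lost it without vehicle replicate 2 or any 1 of the CCM and LA libraries (0.071 to 0.12) and by DESeq2 (0.093). Wnt11 (1.36 ± 0.39, adjusted P = 0.049) lost it without vehicle replicate 1, CCM replicate 1, TCM replicate 1 or either LA library (0.062 to 0.23), by DESeq2 (0.069) and on library totals without TMM factors (0.072). Wnt4, Rspo2, Rspo3, Fzd1, Tcf7l1 and Axin2, called with TCM, were not among those that differed.

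**Figure D5:**
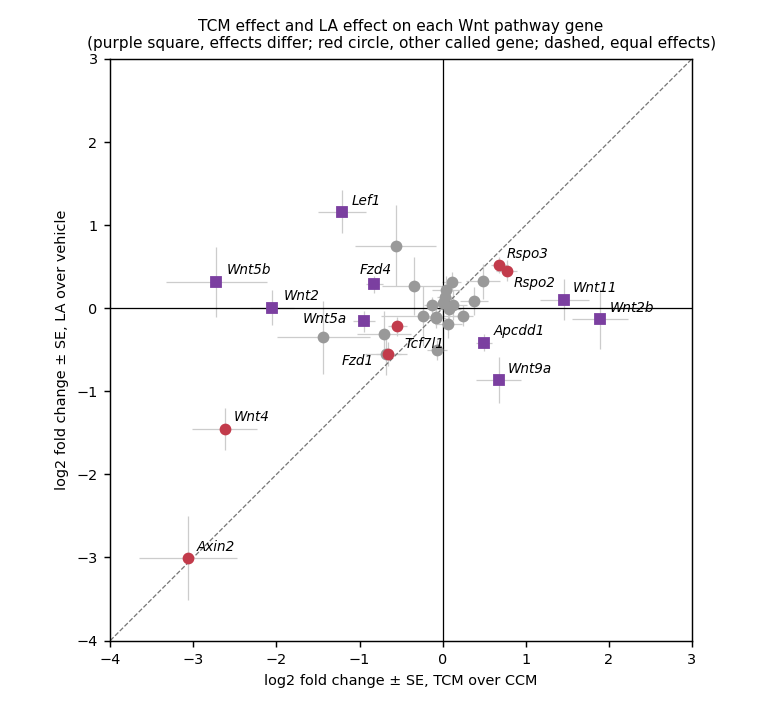
Log2 fold change with SE of each tested Wnt pathway gene for TCM over CCM (horizontal) against LA over vehicle (vertical), where the dashed line marks equal effects. Purple squares are the 9 genes whose effects differ, and red circles are other genes called with TCM or LA. Axin2 at -3.06 and -3.01 lies near the line, while Lef1 at -1.21 and 1.16 lies in the quadrant of opposite directions.

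CCM against vehicle called 2 of the 35 genes, Wnt11 and Lgr4, both lower in CCM and described above, beside 1.3% of all tested genes (0.898% higher and 0.404% lower). The count was 0 without any 1 of the vehicle, CCM or LA libraries.

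TCF/LEF core motifs were sought in the promoters as CTTTG followed by AA, AT, TA or TT, on either strand. Of the 58 members, 37 matched the promoter table by symbol, with 46 starts, of which 7 (15.2%) held a motif, against 5544 of all 32851 promoters of the same length (16.9%). Among genes that passed the count filter the shares were 5 of 28 starts of the members (17.9%) and 1356 of the 12015 promoters of all tested genes (11.3%). Of the 14 members called with TCM, 10 had an entry, with 16 starts, and 3 starts (18.8%) held one, at 1 of the 2 starts of Wnt11, 1 of the 3 of Wnt5b and 1 of the 4 of Lef1. In the Wnt11 window printed above, CTTTGAT lies on the strand opposite to the gene, 51 bases before the start. In the Wnt5b window that holds it (chr6:119449337-119449636, minus strand), CTTTGAT lies on the strand of the gene, 71 bases before the start. Wnt2, Wnt4, Wnt2b, Fzd4 and Axin2 had none of these letters in their windows. These shares are a description and were not tested.

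Of the 85 further pathway genes listed by role (secretion, other receptors and inhibitors, cytoplasmic and nuclear signal, planar polarity, further targets) and found in the table, 68 were tested. TCM called 14 of them, 7 higher and 7 lower, which is 20.6% and near the 19.1% of all tested genes. The higher ones included Daam2, a formin of planar polarity (log2 fold change 1.23 ± 0.17, adjusted P = 0.00055, edgeR), Gpc4, a glypican (0.48 ± 0.09), Fuz (0.80 ± 0.19), Ccn5 (0.76 ± 0.23), Bmp4 (0.43 ± 0.10) and Porcn, the acyltransferase that all Wnt ligands need for secretion (0.53 ± 0.16). The lower ones included Gas1 (-0.85 ± 0.10, adjusted P = 0.00018), Ccn4, a matricellular Wnt target (-1.13 ± 0.15, adjusted P = 0.00041), Igfbp4 (-0.83 ± 0.13), Cd44 (-0.78 ± 0.13), Prickle2 (-1.05 ± 0.20) and Dact1 (-1.53 ± 0.35). Of the 25 tested genes of the cytoplasmic signal, among them Apc and the kinases of the beta-catenin destruction complex, 1 was called with TCM, Dact1. DESeq2 called 11 of the 68 with TCM, with Porcn and Ccn5 not among them.

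With LA, 0 of the 68 were called by edgeR, beside 2.55% of all tested genes. DESeq2 also called 0, while 9 had an unadjusted P value under 0.05 by edgeR. The effects differed for 7, which is 10.3% and near the 10.4% of all tested genes. On the log2 scale they were Ccn4 (-1.17), Gas1 (-1.20), Cd44 (-0.79), Prickle2 (-1.07), Daam2 (1.59), Ccn5 (1.17) and, named after its values were seen, the Wnt carrier Wls (0.48). DESeq2 called 8 for the difference, with Ccn5 not among them. Ccn4 was at 209 and 258 CPM in vehicle, 268 and 252 in CCM, 211 and 269.9 in LA and 106 and 132 in TCM. Thus TCM was the low condition, as for Wnt5a and Wnt2. In CCM against vehicle edgeR and DESeq2 called 0 of the 68, beside 1.3% of all tested genes by edgeR, and 5 had an unadjusted P value under 0.05.

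Of the markers of other cell types, the epithelial one Cdh1 lay below its controls with both treatments. So did Wnt4 and Axin2, which were called lower with both, and also Fzd1, Tcf7l1, Wnt5a, Wnt10b, Fzd2 and Fzd3. The sum of the epithelial list was 4.47 and 4.53 CPM in vehicle, 2.19 and 3.15 in CCM, 1.77 and 2.19 in LA and 0.632 and 0.873 in TCM. Of its 5 genes Epcam and Krt14 were at 0 in all libraries, Krt8 and Krt18 had 1 count each, and the rest was Cdh1, which had a log2 fold change of -1.80 ± 0.38 with TCM (adjusted P = 0.0063, edgeR) and -1.17 ± 0.28 with LA (adjusted P = 0.057). The list thus rests on 1 gene, and the part of epithelial cells in the levels of the Wnt pathway genes was not tested. Of the 9 tested FRC markers, 4 were called with TCM, beside 19.1% of all tested genes. Pdpn was higher (0.44 ± 0.10) and Pdgfrb, Col3a1 and Col6a1 were lower. With LA, Col3a1 alone of these markers was called, lower at -0.66 ± 0.11 (adjusted P = 0.013, edgeR), beside 2.55% of all tested genes. Pdpn was at 0.01 ± 0.10 with LA.

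The 23 members that did not reach the filter were of low count or at 0. Of these, 12 had no count in any library (Wnt3, Wnt3a, Wnt7a, Wnt8b, Wnt9b, Wnt10a, Dkk1, Dkk4, Sfrp5, Rspo1, Rspo4 and Rnf43), which allows each a level of up to 0.212 to 0.355 CPM per library. The highest count among the other 11 was 16. It belonged to Dkk2, an inhibitor that binds Lrp5 and Lrp6, with 7 and 9 counts in vehicle, 14 and 16 in CCM, 4 and 5 in LA and 3 and 3 in TCM. In a fit without the filter on low counts, over 23234 genes, its log2 fold change with TCM was -2.02 ± 0.64 (adjusted P = 0.016, edgeR) and with LA -0.99 ± 0.66 (adjusted P = 0.81). Lgr5, the stem cell receptor of R-spondins, was not called in that fit.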

How the data were processed

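The deposited table holds raw counts per gene for 8 libraries. Per the labels and the methods of the study, the authors aligned reads with STAR 2.7.0a to GRCm38, counted them per gene with featureCounts (Subread 2.0.1) and tested them with DESeq2 1.32.0. Whether strand was used in the counting is not given in the sources used here. A second deposited table, named as normalized, held the same counts for 12137 genes (100% of its values equal) and was not used further.

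The test was run on the genes that reached 10 counts in 3 or more libraries, with edgeR 4.0.16 (TMM factors, quasi-likelihood fit with robust option, 1 mean per condition over all 8 libraries) in R 4.3.3, with Benjamini-Hochberg adjustment over all 12137 genes. A call needed an adjusted P under 0.05 and a log2 fold change beyond 0.39. The first fit has no replicate block. DESeq2 1.42.0, other filters, scalings and thresholds, and leaving out each library served as alternatives. CPM values use the counts in tested genes times TMM factors. Exact 95% intervals were computed for pooled count ratios. Gene positions and exonic lengths came from a GENCODE annotation of GRCm38, which is not the release the authors counted with, and promoters from RefSeq (GRCm38.p6).

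The genes, roles and lists were chosen with earlier results of these data known. Named were all members called in any comparison, all tested Frizzled, R-spondin, Sfrp, Dkk and TCF/LEF members, Axin2, Lgr5, Lrp5 and Lrp6, and up to 6 further pathway genes per direction.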

Additional observations from a re-analysis of the deposited data

Results flagged for a closer look

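For 9 Wnt pathway genes the effect of TCM over CCM differed from that of LA over vehicle by the interaction test of edgeR, which is what singles them out here. On the log2 scale the TCM effect minus the LA effect was -2.37 for Lef1, -2.06 for Wnt2, -1.11 for Fzd4 and 0.91 for Apcdd1, and these calls held in every alternative run. It was -3.05 for Wnt5b, -0.78 for Wnt5a, 2.03 for Wnt2b, 1.36 for Wnt11 and 1.54 for Wnt9a, and each of these lost its call under 5 to 7 of the alternatives. Lef1 and Apcdd1 lay on opposite sides of their controls in the 2 treatments, Lef1 lower with TCM and higher with LA and Apcdd1 the reverse, with adjusted P = 0.060 for the LA effect on Apcdd1. Wnt9a likewise lay above CCM with TCM and below vehicle with LA, where neither effect was called by itself.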

How the results depend on the processing

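The members called in TCM against CCM (14) numbered 10 to 15 when any 1 library was left out, 16 with a replicate block and 10 to 18 over all other alternatives. Those of LA against vehicle (4) numbered 0 to 6 with 1 library left out, 8 without a filter on low counts, 2 with 10 counts required in every library and 5 with the block. Those of the difference (9) numbered 4 to 10 with 1 library left out, 6 by DESeq2 and 9 with the block. Those of CCM against vehicle (2) numbered 0 to 3 with 1 library left out, 1 on library totals without TMM factors, 4 from only the libraries compared, 1 at a fold threshold of 0.68 and 2 with the block. Where 1 library is left, it is assumed to vary like the other conditions. No called value changed sign. The fold threshold of 0.68 by its construction ends the calls of Fzd1, Tcf7l1 and Apcdd1 with TCM, of Rspo3 with LA and of Lgr4 in CCM against vehicle. Calls with TCM that held in all 18 alternatives were those of Wnt5a, Wnt2, Fzd4, Rspo2 and Rspo3. Those of Wnt4, Wnt5b, Wnt2b and Axin2 held in the 17 alternatives that tested them. The filter of 10 counts in every library removed these genes, so their calls were not tested under it. Under at least 1 alternative calls were gained by Fzd5, Fzd9, Znrf3 and Wnt10b with TCM, by Lgr4, Fzd1, Rspo2 and Apcdd1 with LA and by Wnt4 in CCM against vehicle.

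Over all tested genes, the deviations of same-numbered libraries correlated at 0.11 to 0.35 among vehicle, LA and TCM and at -0.24 to -0.04 between CCM and these. Over the 35 tested members they correlated at 0.07 to 0.57 among vehicle, LA and TCM, highest for vehicle with LA. Between CCM and these it was -0.08 to 0.02. With 2 numbers per condition and no label on what they share, the libraries were treated as unpaired. With the CCM numbers crossed, an alternative chosen after seeing the data, the members called were 17, 8, 9 and 3 for TCM, LA, the difference and CCM, and all genes called 596, 1938 and 457 for the last 3 of these in that order.

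Over all genes, counts moved by over 1.5 times as follows. TCM against CCM (2314) gave 1331 at the fold threshold of 0.68 and 1195 to 2864 with 1 library left out. LA against vehicle (310) gave 176 at that threshold, 656 without the filter and 57 to 617 with 1 library left out. The difference (1268) gave 629 to 2540 with 1 library left out. CCM against vehicle (158) gave 84 at that threshold, 584 without the filter, 679 from only the libraries compared and 0 to 497 with 1 library left out. Library totals without TMM factors moved the median of all genes by -0.14 with TCM against CCM. Depth limits what can be said of Axin2, Wnt5b, Wnt2b and the untested members, which rest on few counts.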
